A study of Caenorhabditis elegans with 2 samples.

Results

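Distal intergenic summits are the points of highest enrichment of NHR-6 peaks that lie in sequence between genes and away from gene starts. In the list that the authors thresholded for reproducibility, 448 summits met this rule and 2272 did not, a share of 16.5% (Wilson 95% interval 15.1 to 17.9%). The rule asks for a summit outside the span of every protein-coding gene and more than 1500 bp from each annotated protein-coding 5′ end. The choice used position alone and no measured value beyond presence in the list. Of the other summits, 1528 lay outside genes within 1500 bp of a 5′ end, 387 inside genes within that distance and 357 inside genes beyond it. The peaks came from chromatin immunoprecipitation and sequencing of eGFP-tagged NHR-6 in whole Caenorhabditis elegans L4 larvae, both sexes pooled. There was 1 group with 2 biological replicates, of strain OP90, with the genotype unc-119(ed3) III; wgIs90, where wgIs90 is an inserted transgene for nhr-6. All animals carried both alleles, so no group lacks the tag and no conditions can be compared. Whole animals hold many cell types, and signal from few cells or from weak binding in many cannot be told apart.

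NHR-6 belongs to the NR4A nuclear receptors, which in mammals bind as monomers to an extended half-site, AAAGGTCA. In worms it is known for its part in the development of the spermatheca. Worm genes are packed closely, and most regulatory sequence known in this animal sits just upstream of genes. Sequence between genes and far from any 5′ end can hold enhancers. It also holds short genes transcribed by RNA polymerase III, such as tRNA genes. On the X chromosome it holds recruitment sites of the dosage compensation complex, which lowers X expression in hermaphrodites. Those sites carry a longer motif, known as MEX, whose core is GCGCAGGG.

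A site held by several of the strongest X members is shown first. GCGCAGGG was searched after the values had been seen, because GCGCAG, a site on the list of sites searched, was commoner on X. It lay within 50 bp of the summit in 7 of 122 X members and in 0 of 326 autosomal members, which allows a share of up to 0.920% (3 counts). The 7 windows below run from 50 bp before to 50 bp after the summit on the plus strand of WBcel235 (ce11), as read from the RefSeq assembly, and capitals mark each match to GCGCAGGG or its reverse complement.
W04G3.11 to W02H3.3, chrX:11094136-11094236: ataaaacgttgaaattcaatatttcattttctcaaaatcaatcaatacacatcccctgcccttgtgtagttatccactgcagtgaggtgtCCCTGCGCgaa
F20B6.9 to hpk-1, chrX:4209257-4209357: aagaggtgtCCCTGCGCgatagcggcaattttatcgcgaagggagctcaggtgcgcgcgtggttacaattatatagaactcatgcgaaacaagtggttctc
F22H10.2 to F22H10.11, chrX:16682086-16682186: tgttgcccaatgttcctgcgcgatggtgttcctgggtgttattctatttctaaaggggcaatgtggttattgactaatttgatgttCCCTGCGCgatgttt
C34D10.1 to xol-1, chrX:8036356-8036456: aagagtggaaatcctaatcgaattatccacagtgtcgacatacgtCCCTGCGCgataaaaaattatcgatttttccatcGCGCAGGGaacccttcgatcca
gtr-1 to F25E2.2, chrX:806607-806707: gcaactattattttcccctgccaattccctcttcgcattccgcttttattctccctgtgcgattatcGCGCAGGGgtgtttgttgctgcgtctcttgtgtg
dpy-23 to D1079.1, chrX:4395579-4395679: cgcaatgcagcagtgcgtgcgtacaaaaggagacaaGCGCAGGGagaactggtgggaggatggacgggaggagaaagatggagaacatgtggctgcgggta
col-185 to cdk-4, chrX:13514542-13514642: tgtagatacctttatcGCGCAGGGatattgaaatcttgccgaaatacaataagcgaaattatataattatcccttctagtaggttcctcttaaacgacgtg

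Matches began between 41 bp before and 40 bp after the summit, and the member between C34D10.1 and xol-1 held 2 of them. The gene xol-1 is the switch that sets male or hermaphrodite fate from the number of X chromosomes. The next windows show 4 of the 5 members that hold the full NR4A-type site AAAGGTCA, in capitals, because this is the site known for the family.
cnp-3 to T23C6.4, chrX:17146740-17146840: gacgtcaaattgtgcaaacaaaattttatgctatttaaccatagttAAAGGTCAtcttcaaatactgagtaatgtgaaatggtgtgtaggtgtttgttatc
C44H9.5 to C44H9.7, chrV:12852502-12852602: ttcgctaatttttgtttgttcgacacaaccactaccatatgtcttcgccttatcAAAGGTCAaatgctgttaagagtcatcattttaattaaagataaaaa
T19H5.4 to gcy-3, chrII:9502208-9502308: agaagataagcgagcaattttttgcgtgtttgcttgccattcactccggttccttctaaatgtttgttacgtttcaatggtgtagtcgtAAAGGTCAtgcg
T19C3.4 to T19C3.5, chrIII:622502-622602: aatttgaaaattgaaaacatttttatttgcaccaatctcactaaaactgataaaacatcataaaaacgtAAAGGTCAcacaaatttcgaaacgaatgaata

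The last windows, again on the plus strand from 50 bp before to 50 bp after the summit, show what other kinds of member look like. The first is the member of highest signal that holds the purine repeat GAGAGA, and the other the X member of highest signal with a match to the B box, the internal promoter element of tRNA genes. Capitals mark the sites. The B box was at 6 of 448 members (1.34%), against 1.43% of all thresholded summits. It was at 5 of the 35 members within 200 bp of a tRNA gene (14.3%).
atfs-1 to T16A9.3, chrV:14200191-14200291: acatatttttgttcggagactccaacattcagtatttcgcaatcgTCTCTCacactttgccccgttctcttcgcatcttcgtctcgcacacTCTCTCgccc
W04G3.11 to W02H3.3, chrX:11095714-11095814: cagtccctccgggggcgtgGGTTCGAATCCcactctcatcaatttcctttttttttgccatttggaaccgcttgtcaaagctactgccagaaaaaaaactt

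The 3 strongest distal intergenic summits were on X. Each peak has a signal, a value the authors gave it without a stated scale in the files and labels used. Signals are therefore described by values, medians, correlations and ranks within a list. Those of different lists may not share a scale. The highest, between W04G3.11 and W02H3.3, had a pooled signal of 124.6 and ranked 28 in the thresholded list, with signals of 70.6 in replicate 1 and 58.7 in replicate 2. The summit between adm-2, which encodes an ADAM metalloprotease, and K02D3.1 had a pooled signal of 122.7, with 83.8 in replicate 1 and 45.9 in replicate 2. The summit between cnp-3 and T23C6.4, which holds the NR4A-type site, had 119.7 pooled, 76.9 in replicate 1 and 45.99 in replicate 2. These were high in both replicates, with ranks of 13 to 27 in replicate 1 and 41 to 127 in replicate 2.

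Of the 15 members with the highest signal, 11 lay on X, as did 122 of all 448 members. The share of X among the strongest summits of the whole list is not given here. The count is therefore not shown to be particular to distal intergenic summits. The autosomal members of the 15 included a summit on chromosome V with a pooled signal of 111.1. It lay between atfs-1, the transcription factor of the mitochondrial unfolded protein response, and T16A9.3. Another on V, between the chemoreceptor gene srh-16 and frm-7, had 107.9. The summit between F54F12.1 and Y39E4B.6 on III had 96.6. The member at 17023 bp on chromosome I, between the neuropeptide gene nlp-40 and rcor-1, had 106.9. The remaining X members of the 15 had signals of 94.3 to 110.8 and lay beside F56C3.1, hpk-1 (a homeodomain-interacting protein kinase), C30E1.4, F22H10.2, xol-1, F19H6.5, gtr-1 and F43E12.1. The weakest members reached 27.5, next to famk-1 and H03A11.2 on X and between R06C1.4 and R06C1.6 on I.

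The median member was weaker than the median summit close to a 5′ end. The members' median signal was 36.1 (95% interval of the median 34.7 to 37.6, range 27.5 to 124.6), against 41.2 (40.4 to 42.5) at summits within 1500 bp of a 5′ end, 38.1 (36.5 to 39.5) at summits inside genes beyond that distance and 39.1 over the whole list. The interval of the members overlapped that of the summits inside genes and not that of the summits near a 5′ end. In the stronger 50% of the list stood 183 of 448 members (40.8%, Wilson 36.4 to 45.5%), against 50% of the whole list by construction. In its strongest 10% stood 40 members (8.93%, 6.63 to 11.9%), and 18 of those 40 lay on X. Just inside the limit, the summits 1502 bp from rsks-1, the S6 kinase gene, and 1503 bp from lgc-44 had signals of 49.7 and 34.6. Just outside it, those 1500 bp from cmd-1, the calmodulin gene, and 1495 bp from xdh-1 had 28.6 and 27.9, and the 2 inside were higher than the 2 outside.

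**Figure D1:**
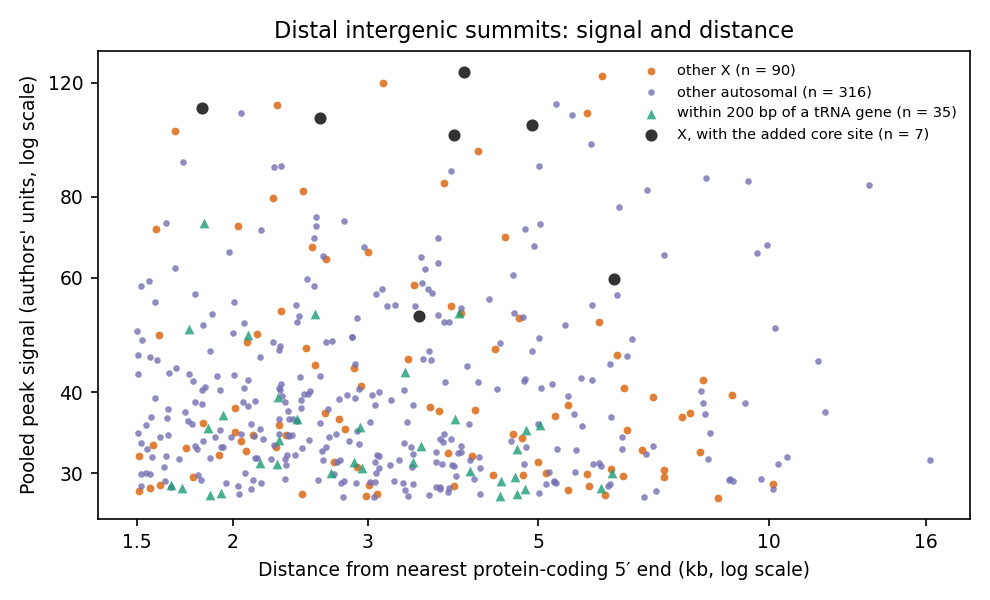
Pooled peak signal (authors' units, log scale) against distance from the nearest protein-coding 5′ end (kb, log scale) for the 448 distal intergenic summits, coloured by class. The 7 X members with the GCGCAGGG core, in black, run from 52.3 to 124.6, while most members within 200 bp of a tRNA gene, the green triangles, sit low, with a median of 31.2.

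In the replicates' own relaxed lists, 222 members (49.6%, Wilson 44.9 to 54.2%) overlapped one of the strongest peaks of both replicates, taking as many peaks from each replicate as the thresholded list holds, against 55.3% of all thresholded summits. The strongest peaks of replicate 1 overlapped 328 members (73.2%, against 74.8% of all thresholded summits). Those of replicate 2 overlapped 314 (70.1%, against 75.2%). Both counts include the 222, and 28 members (6.25%, against 5.26%) overlapped neither. Of the 440 members with a peak in both relaxed lists, signal in replicate 1 and signal in replicate 2 had a Spearman correlation of 0.210. The Pearson correlation, taken on log2 signal, was 0.218. Both are given as a description over peaks that share 2 libraries and a selection on pooled signal. Over all summits the values were 0.280 and 0.300 (n = 2681). Of the strongest 25% of members, 106 of 112 (94.6%) were among the strongest of both replicates, against 15 of 112 (13.4%) of the weakest 25%, and pooled signal is made from both replicates, so this split is not independent of them.

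Single members could differ widely between replicates. The summit between K12G11.6 and sma-1 on V, where sma-1 encodes a spectrin, had a signal of 2.88 in replicate 1 (rank 21040) and 30.9 in replicate 2 (rank 491). The summit between C17G10.6 and C17G10.7 on II had 26.6 in replicate 1 (rank 738) and 3.30 in replicate 2 (rank 23484). The member between F22H10.2 and F22H10.11 on X, one of those with GCGCAGGG, had 34.4 in replicate 1 (rank 334) and 72.9 in replicate 2 (rank 21).

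**Figure D2:**
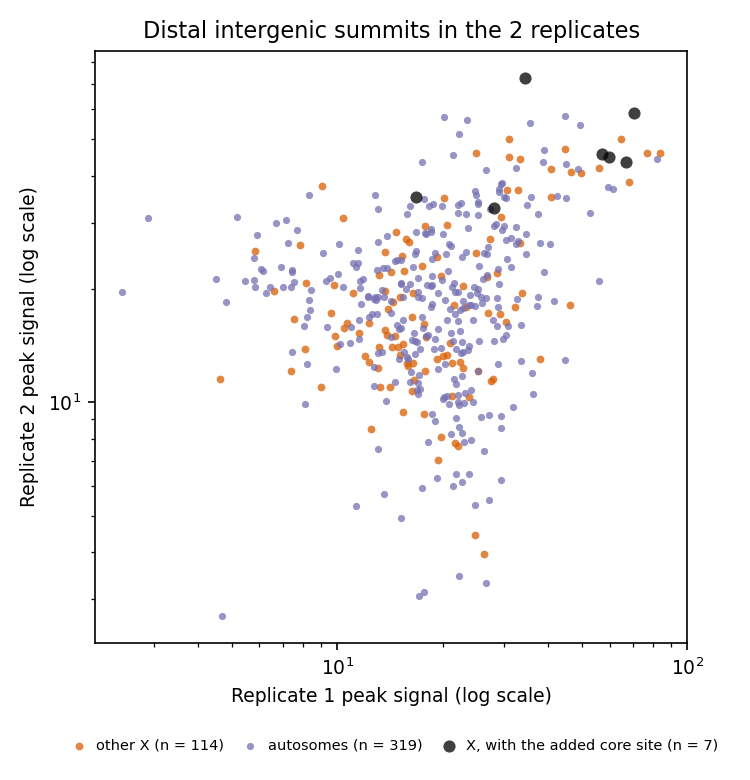
Signal of 440 distal intergenic summits in the relaxed list of replicate 1 (x axis) and replicate 2 (y axis), both log scales, with X members in orange and autosomal members in violet. The cloud is broad, with a Spearman correlation of 0.210, and 5 of the 7 X members with GCGCAGGG, in black, stand at its upper edge.

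Distal intergenic summits were spread unevenly over the chromosomes. X held 122 of 448 (27.2%, Wilson 23.3 to 31.5%), against 18.5% of all thresholded summits, while I held 66, II 58, III 61, IV 69 and V 72. The rule admits 20.33 Mb of the genome, 20.3% of it, and X has a large part of that, 4.71 Mb or 23.2%. Per Mb of sequence that meets the rule, X had 25.9 members, against 20.9 on the autosomes together, and I had 28.8, III 26.5, II 20.7, V 17.9 and IV 16.4. So X stood above the autosomal average by density but below I and III. The median signal was 36.1 on X and 36.1 on the autosomes, although 18 of the 40 members in the strongest 10% of the list were on X. The share of X among all summits in that 10% is not given here.

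**Figure D3:**
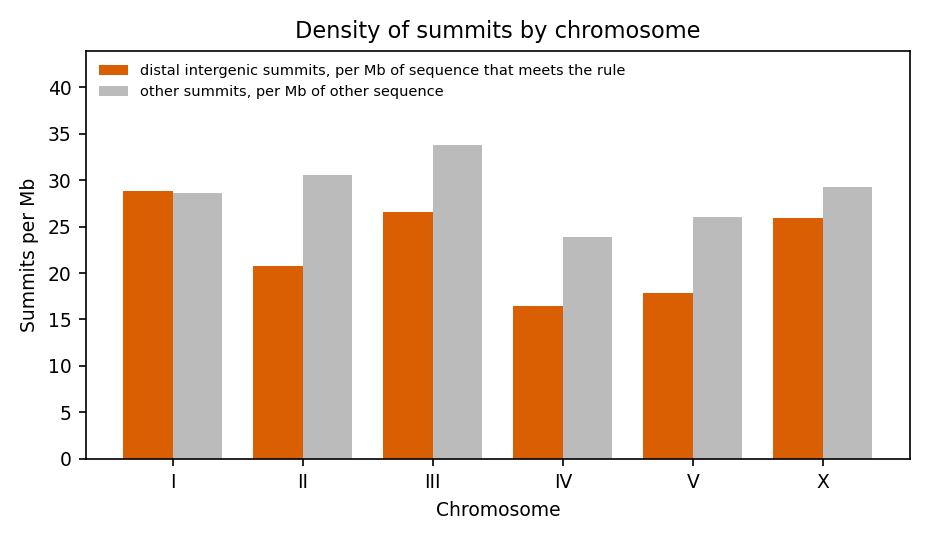
Summits per Mb by chromosome: distal intergenic summits per Mb of sequence that meets the rule (left bar of each pair) and all other summits per Mb of other sequence (right bar). Distal density ran from 16.4 on IV to 28.8 on I, with X at 25.9.

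The X members with GCGCAGGG were strong. All 7 were among the strongest 25% of the 448, which begins at a signal of 47.9, and their signals were 124.6, 109.6, 105.9, 103.1, 99.5, 59.8 and 52.3. The 2 weakest lay between dpy-23, which encodes a clathrin adaptor subunit, and D1079.1, and between col-185 and cdk-4, the cyclin-dependent kinase gene. In the whole thresholded list the site was at 14 summits (0.515%), all on X, including the 7 members. It was at 5.74% of X members (Wilson 2.81 to 11.4%). Of X summits inside genes it was at 3.92% (1.08 to 13.2%) within 1500 bp of a 5′ end and 2.67% (0.734 to 9.21%) beyond. Outside genes within 1500 bp it was at 1.18% (0.401 to 3.4%). Each of these intervals overlapped that of the members. The signals of the other X summits with the site are not given here. In sequence that meets the rule it was in 22 of 45417 windows of the same width on X (0.0484%) and in 43 of 149775 on the autosomes (0.0287%). The shorter GCGCAG was at 12 X members (9.84%, Wilson 5.72 to 16.4%) and at 10 autosomal ones (3.07%, 1.67 to 5.55%). Over both it was at 4.91% of members, against 5.62% of all thresholded summits. Inside genes within 1500 bp of a 5′ end it was at 9.8% of X summits and 5.36% of autosomal ones. Inside genes beyond that distance the shares were 5.33% and 2.84%, and outside genes within it 7.06% and 6.13%. Of the 12 X members with GCGCAG, 10 were among the strongest of both replicates. Binding of the dosage compensation complex was not measured in these files, and its part in these peaks was not tested.

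The purine repeat and CGTCTC were common at members. GAGAGA lay within 50 bp of 145 members (32.4%, Wilson 28.2 to 36.8%), against 27.3% of all thresholded summits. It was at 38.7% (33.8 to 43.8%) of summits inside genes over 1500 bp from 5′ ends. At summits outside genes within 1500 bp of a 5′ end it was at 24.3%. In equal windows 300 bp to the left and right of the members it was at 7.59% and 6.47%, and in windows that meet the rule at 5.33%. It was at 28 of 122 X members (23.0%) and 117 of 326 autosomal members (35.9%). At summits inside genes over 1500 bp from 5′ ends it was at 26.7% on X and 41.8% on autosomes. Inside genes within 1500 bp the shares were 17.6% and 23.5%. Outside genes within 1500 bp they went the other way, 26.7% and 23.9%. Of the strongest 25% of members, 49 of 112 (43.8%) held GAGAGA, against 28 of 112 of the weakest (25%). CGTCTC was at 92 members (20.5%), against 19.0% of all summits and 2.46% of windows that meet the rule. Summits inside genes over 1500 bp from 5′ ends had 22.1%, and those outside genes within 1500 bp had 18.1%. CGTCTC was at 11.5% of X members and 23.9% of autosomal ones. At summits inside genes over 1500 bp from 5′ ends the X and autosomal shares were 14.7% and 24.1%. Inside genes within 1500 bp they were 7.84% and 19.6%, and outside genes within 1500 bp 16.9% and 18.4%. Both sites were commoner at members than 300 bp away, as they were at summits in general.

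The receptor sites were rarer. AGGTCA, the half-site of nuclear receptors, was at 21 members (4.69%, Wilson 3.09 to 7.06%), against 3.71% of all summits, 2.23% and 2.90% of the flanks and 2.65% of windows that meet the rule, so the flanking and background shares lay below the interval. With the rule applied to replicate 2 by itself the share was 3.39% (2.07 to 5.52%), and to replicate 1 by itself 4% (2.54 to 6.23%), and both intervals hold the background share. AAAGGTCA was at 5 members (1.12%, 0.478 to 2.59%), against 0.735% of all summits and 0.360% of such windows. Of these 5, the summit between cnp-3 and T23C6.4 ranked 34 and the one between C44H9.5 and C44H9.7 ranked 112, with no peak in the relaxed list of replicate 2. The summit next to gcy-3, a guanylyl cyclase gene, ranked 232, and those between T19C3.4 and T19C3.5 and beside srb-15 ranked 1750 and 2244. The AP-1-like site TGANTCA was at 41 members (9.15%, 6.82 to 12.2%), against 7.24% of all summits and 1.79% and 3.57% of the flanks. The TATA box (TATAAA) was at 6.03% of members, against 4.56% of all summits and 12.4% of windows that meet the rule. The homeodomain site TAATTA was at 2.23%, against 1.62% and 5.13%, and the heat shock element (GAANNTTC) at 2.90%, against 2.83% and 7.45%. These 3 were rarer than in such windows at members and at summits in general. The GATA-type site TGATAA was at 12.5% of members, against 9.78% and 8.97%, and the forkhead site TGTTTAC at 3.79%, against 3.16% and 1.32%.

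**Figure D4:**
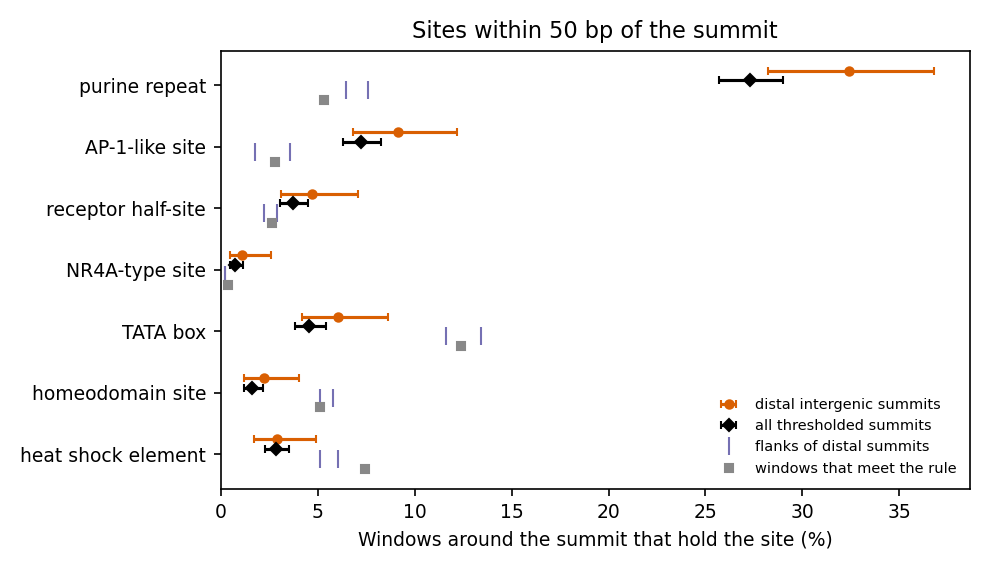
Percent of windows of 50 bp to each side that hold a site: distal intergenic summits and all thresholded summits (points with Wilson 95% intervals), the flanks of distal summits on either side (violet ticks), and windows that meet the rule (grey squares). The purine repeat is GAGAGA, the AP-1-like site TGANTCA, the receptor half-site AGGTCA and the NR4A-type site AAAGGTCA. The purine repeat reaches 32.4% at distal summits and 5.33% in such windows.

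Members had a higher median GC content than their flanks and a lower one than all thresholded summits. Median GC content within 50 bp of the summit was 43.6% at members (95% interval 42.6 to 44.6%), against 33.2% in their flanks and 33.7% in windows that meet the rule, and 45.5% at all thresholded summits. The part of composition in the site shares was not tested. Repeats masked in the assembly covered at least 50% of the window at 29 members (6.47%), close to the 6.58% of all thresholded summits, against 36.1% of windows that meet the rule.

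Noncoding genes were near many members. A tRNA, snoRNA, snRNA, rRNA, miRNA, ncRNA, lincRNA or antisense RNA gene lay within 200 bp of 117 members (26.1%, Wilson 22.3 to 30.4%). The share was 19.1% of all thresholded summits and 6.69% of sequence that meets the rule. At summits inside genes over 1500 bp from 5′ ends it was 23.8% (19.7 to 28.5%), an interval that overlaps the members'. For tRNA genes, which RNA polymerase III transcribes, the counts were 35 members (7.81%, 5.67 to 10.7%). Those summits inside genes had 6.72%, all summits 4.08% and sequence that meets the rule 0.381%. Of these 35, 14 had their summit inside the tRNA gene and 25 were on X. X has 276 of the 612 annotated nuclear tRNA genes. Of sequence that meets the rule, 77565 bp lie within 200 bp of a tRNA gene, 47452 of them on X. snoRNA genes, whose RNAs guide modification of ribosomal RNA, were near 12 members (2.68%, all on autosomes). That is the same share as the 2.68% of all summits, against 4.76% of those inside genes and 0.176% of sequence that meets the rule. miRNA genes were near 6 members (1.34%, 0.615 to 2.89%), against 1.12% of those inside genes, 0.441% of all summits and 0.232% of that sequence. ncRNA, the annotation's class for other noncoding genes, was near 85 members (19.0%, 15.6 to 22.9%), against 17.9%, 14.7% and 5.11% in the same order. Of those 85, 18 were also near a tRNA gene. piRNA genes were near 7 members (1.56%), against 1.07% of all summits and 6.74% of that sequence. Pseudogenes were near 5 (1.12%), against 0.404% and 13.3%, so both classes were rarer at members than in that sequence and no rarer than at summits in general.

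The members near tRNA genes were among the weaker ones. Their median signal was 31.2 (range 27.7 to 72.8), and 10 of 35 (28.6%, Wilson 16.3 to 45.1%) were among the strongest of both replicates. The highest, near WBGene00023110 between M02F4.2 and cnnm-3, had a pooled signal of 72.8, with 32.8 in replicate 1 and 36.6 in replicate 2. The next, near WBGene00014275 and lgc-21, had 53.0. Near snoRNA genes the highest was a summit inside F30H5.4 on III, between unc-45, a myosin chaperone gene, and F30H5.3, with a pooled signal of 84.6 and ranks of 210 and 160. Near miRNA genes the highest lay 100 bp from cel-mir-53 on IV, with a pooled signal of 72.8 and ranks of 906 and 300. 2 summits near cel-mir-52 had 67.5 and 29.4, and the second was weak in replicate 1, with a signal of 2.43. Those near cel-mir-80 and cel-mir-75 had 44.7 and 38.02. The single member near an snRNA gene, sls-2.9, had 35.4, and such genes were near 0.588% of all summits. GAGAGA was at 3 of the 35 members near a tRNA gene (8.57%).

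Distances and flanking genes gave a further picture. The median distance from a member to the nearest 5′ end was 3013 bp (range 1502 to 16217 bp). Of the members, 83 lay within 2000 bp (18.5%), 140 from there to 3000 bp (31.2%) and 128 to 5000 bp (28.6%). Another 88 lay up to 10000 bp away (19.6%) and 9 beyond (2.01%, Wilson 1.06 to 3.77%). In the same order these distances held 17.5%, 26.3%, 29.2%, 21.8% and 5.24% of sequence that meets the rule. The farthest, 16217 bp from Y23H5B.5 on I, had a signal of 31.4, and the one 13513 bp from irld-18 on IV had 83.4 and ranked 143. The gap between the 2 flanking genes had a median of 7454 bp at members, against 1069 bp at summits outside genes within 1500 bp of a 5′ end, a difference that the distance in the rule largely fixes. Flanking genes were in tandem at 257 members (57.4%), divergent at 133 (29.7%) and convergent at 57 (12.7%), against 53.3%, 29.5% and 16.9% of sequence that meets the rule. On X, 27 of 122 members (22.1%, Wilson 15.7 to 30.3%) were between convergent genes, against 13% of that sequence, and on autosomes 30 of 326 (9.20%, 6.52 to 12.8%), against 18.1%.

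Of the 57 members between convergent genes, 31 had a noncoding gene within 200 bp and 26 a protein-coding 3′ end within 500 bp, and 14% held GAGAGA, against 36.6% of tandem and 32.3% of divergent members. In all, a 3′ end was within 500 bp of 57 members (12.7%, Wilson 9.95 to 16.1%), against 18.9% of all thresholded summits and 10.5% of sequence that meets the rule.

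**Figure D5:**
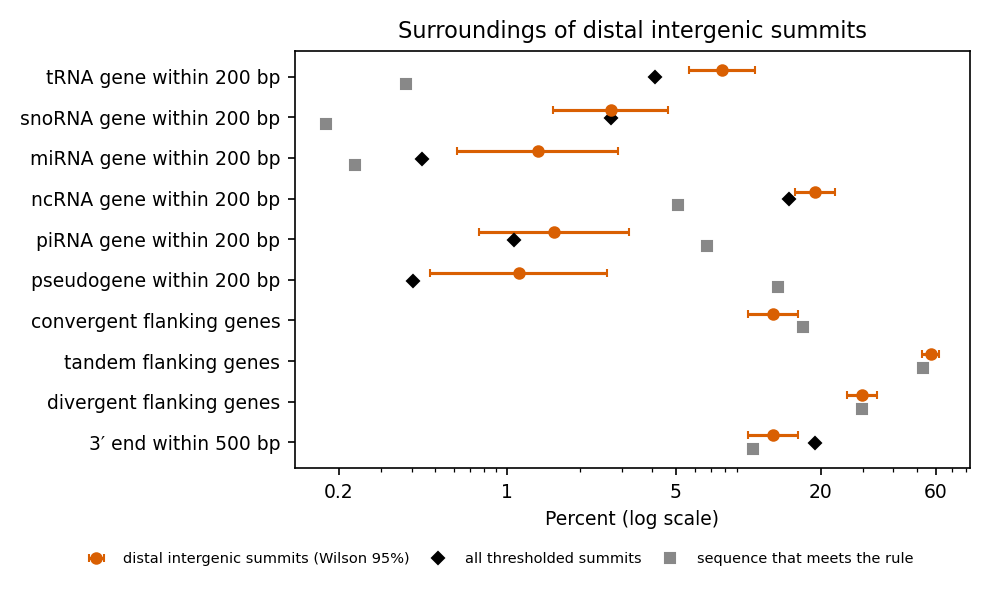
Percent of the 448 distal intergenic summits (orange, Wilson 95% interval), of all thresholded summits where counted (black) and of the bases that meet the rule (grey) in each setting, on a log scale. tRNA genes within 200 bp apply to 7.81% of distal summits, 4.08% of all summits and 0.381% of that sequence, and pseudogenes to 1.12%, 0.404% and 13.3%.

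By the nearest 5′ end, 21 members (4.69%, Wilson 3.09 to 7.06%) belonged to 18 genes named as nuclear receptors. The share was 1.88% of all thresholded summits and 1.95% of sequence that meets the rule. Of the 21, 18 lay upstream of that gene. So did 317 of all 448 members (70.8%) and 65.3% of sequence that meets the rule. The highest of the 21 was 2176 bp upstream of nhr-105, with a signal of 71.1. nhr-88 had 3 members upstream, at 2550, 4793 and 6042 bp, with signals of 69.2, 41.6 and 30.8. nhr-45 had one of 53.4. The gene that encodes the protein studied, nhr-6 (chromosome III, 3573581 to 3578771, WBcel235), had 2 members upstream, at 1869 and 3293 bp, with pooled signals of 31.6 and 31.5. The nearer one had signals of 6.69 in replicate 1 and 29.98 in replicate 2, the farther 22.5 and 13.5, so the replicates differed at both. The strain carries a transgene for nhr-6, and reads from an added copy of this region cannot be told apart from those of the native one.

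Other gene lists had few members. Chemoreceptor genes were nearest to 3 members (0.670%), close to the 0.809% of all summits, against 5.39% of sequence that meets the rule. Those 3 were beside srg-64 (53.0), sri-5 (50.3) and srb-15 (30.7). F-box genes were nearest to 1 (fbxa-30, 51.3), against 0.551% of all summits and 1.40% of that sequence, and neuropeptide genes to 1 (nlp-40), against 0.147% and 1.43%. Homeobox genes were nearest to 2 (ceh-58 and ceh-62), with 0.257% of all summits, lectin genes to 2, with 0.294%, and collagen genes to 2, with 0.331%. Hedgehog-related genes were nearest to 1, with 0.110% of all summits, and ribosomal protein genes to 2, both near rpl-21, with 1.54%. Histone genes were nearest to 0, which allows up to 0.670%, with 0.294% of all summits. The nearest 5′ end is a position and was not shown to be the gene acted on.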

How the data were processed

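The deposited ce11 peak lists of the 2 biological replicates and of both pooled were read. Per peak, the authors give a signal, a q-value as −log10 and the summit's offset, and every thresholded peak has the deposited −log10 q-value of 3.91, so signal ranked them. The aligner and peak caller are not given in the sources used, and read depth is unknown. Genes came from Ensembl release 115 on WBcel235, which matches ce11, and ce10 lists were not used. The summit was the start plus the offset. A summit was distal intergenic outside all protein-coding spans and over 1500 bp from all 5′ ends. Sequence that meets the rule was found base by base, and as windows of the width searched. Sites were searched on either strand, up to 50 bp from the summit (22 listed at the outset, and GCGCAGGG after the values were seen). Members overlapping by 1 bp counted as matched to a replicate. Shares have Wilson 95% intervals, which cover counting of peaks only, and medians order-statistic intervals. No p-values were computed, since peaks are not replicates. The members, gene lists and most sites were chosen with earlier results of these data known. The members named were those of highest and lowest signal, the farthest, those at the limit, those near tRNA, snoRNA, snRNA or miRNA genes, those of each orientation and with AAAGGTCA, those differing most between replicates, and, named after their values were seen, members with GCGCAGGG, of the nuclear receptor list and of the other gene lists. The code was checked on simulated positions. Python 3.11.15, numpy 2.4.6, pandas 2.3.3, scipy 1.17.1 and matplotlib 3.10.9 were used. Alternatives changed the distance, the annotation, the list and the replicate used.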

Additional observations from a re-analysis of the deposited data

How the results depend on the processing

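No paired analysis was possible because there was 1 group. Over 93 values recomputed under alternatives, 75 stayed within the interval (counts within 1.5 times) and 18 did not. The share of summits that are distal intergenic was 21.8% with a limit of 1000 bp and 13.4% with 2000 bp. In the stronger 50% of the list, 183 summits (13.5%) met the rule, with a median signal of 51.3, 87.4% among the strongest of both replicates, 21.9% near a noncoding gene and 41.0% with GAGAGA. All pooled peaks at the highest q gave 697 and a median signal of 30.9. Applying the rule to noncoding genes too left 251 summits (9.23%), with 0% near a noncoding gene by construction and 37.1% with GAGAGA. Wider settings raised shares by construction, to 31.5% for noncoding genes within 500 bp, 23.4% for 3′ ends within 1000 bp, and, in windows of 100 bp to each side, 51.3% for GAGAGA and 8.48% for AGGTCA. From either replicate alone, counts were 442 to 450, shares distal 16.2 to 16.5%, near a noncoding gene 24.7 to 25.1%, near a 3′ end 12.7 to 13.6%, with GAGAGA 30.7 to 33.7%, with AGGTCA 3.39 to 4%, and median GC 42.6 to 43.6%. Leaving out X or members near noncoding genes, chosen after seeing the data, kept every value tried within its interval. Read depth is unknown, no control track was analysed here, and pooled signal and thresholding share both libraries.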

Other observations

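Distal intergenic summits shared gaps between genes. The 448 members lay in 364 gaps, of which 6 held 4 members, 11 held 3, 44 held 2 and 303 held 1. Gaps with 4 members included the one between C30E1.4 and F52G3.8 on X, 23880 bp long, with signals from 27.7 to 107.7, and the one between irld-55 and Y37A1B.7 on IV, with signals from 29.4 to 67.5. Another summit of the list lay within 5000 bp of 219 members (48.9%, Wilson 44.3 to 53.5%), against 40% of all thresholded summits. One lay within 1000 bp of 40 members (8.93%), against 8.57%. At summits inside genes over 1500 bp from 5′ ends these shares were 49.9% (44.7 to 55%) and 15.1% (11.8 to 19.2%). Between 33.3% and 66.7% of the length of their chromosome lay 155 members (34.6%, 30.3 to 39.1%), against 29.4% of sequence that meets the rule. On autosomes the shares were 37.1% (32.1 to 42.5%) and 29.7%, and on X 27.9% (20.7 to 36.4%) and 28.5%. The share over all thresholded summits is not given here, so the central position is not shown to be particular to members.

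Peak width also differed among members. The commonest width in the thresholded list was 316 bp, and 23 members (5.13%) were narrower, against 7.54% of all thresholded peaks, with 19 of the 23 among the 40 members of highest signal. The cause was not tested.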
